A study of Mus musculus with 4 samples.

Results

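The NRF2, glutathione and thioredoxin genes are the transcripts with which a cell makes, uses and recycles its 2 main thiol reductants. Here 36 such genes were selected by exact gene symbol from a table of 54532 genes, and all 36 symbols were found. RNA of alveolar macrophages (AMs), which live in the airspaces and clear inhaled material and surfactant, was sequenced in bulk after purification from lungs of female wild-type mice, which the methods of the study give as BALB/c. The Control group held 2 libraries from mice that received no tumor cells. The Tumor group held 2 libraries from mice that had carried 4T1 for 2 weeks, a metastatic mammary carcinoma line of mouse origin. The methods of the study state an age range for its wild-type mice, and the labels give no age. The number of mice behind a library is not given in the sources used here, so the p-values measure only the spread between these libraries, which may be technical. The comparison asks how these genes differed in AMs of the pre-metastatic lung. The study asked about the aryl hydrocarbon receptor (AHR) in these cells.

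NRF2, encoded by Nfe2l2, is a transcription factor that KEAP1 binds and sends for degradation until oxidants or electrophiles modify KEAP1. NRF2 then pairs with a small MAF protein and binds antioxidant response elements near genes for glutathione synthesis, thioredoxin reductase, sulfiredoxin and quinone reductase, whereas BACH1 binds the same elements and represses many of these genes. AMs face inhaled oxidants and oxygen at high pressure, and macrophages also make peroxide themselves, which peroxiredoxins, glutathione peroxidases and catalase remove.

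Libraries held 16167147 to 19205737 counts, and neither group was consistently deeper. All 14 AM marker genes were detected in every library, with summed levels of 16427 to 16572 CPM (counts scaled to a common library size, with TMM factors) in Control and 12565 to 12707 CPM in Tumor libraries. Of these 14 genes 12 were lower and 1 was higher, from Fabp4 at -2.13 to Ear1 at 0.96 on the log2 scale, with a median of -0.46. Markers of other cells moved with the groups. The summed level of 10 neutrophil markers was 53.7 to 53.8 CPM in Control and 3829 to 3866 CPM in Tumor libraries, and all 10 were higher. The 5 eosinophil markers rose from 0.480 to 0.507 CPM in sum to 2204 to 2224 CPM, and the 10 hepatocyte markers from 0.587 to 1.14 CPM to 733.5 to 738.8 CPM. Of the hepatocyte markers 7, Alb among them, had 0 counts in both Control libraries. All 6 basophil and mast cell markers were higher, at 0.267 to 0.634 CPM in sum in Control and 55.0 to 62.9 CPM in Tumor libraries, and 4 of 5 fibroblast markers were higher, at 3.55 to 4.05 against 8.14 to 9.68 CPM in sum. Of 6 markers of airway and alveolar epithelium 4 were lower, at 88.2 to 91.9 against 34.8 to 37.1 CPM in sum. Endothelial markers summed to 113.6 to 116.6 and 103.7 to 103.9 CPM, with 2 higher and 1 lower of 4 tested. Most of these sums was Vwf, the lower one, with means of 111 CPM in Control and 81.9 CPM in Tumor libraries, while Pecam1 rose from 2.13 to 18.8 CPM. Elsewhere in the study AMs were gated as CD45+ CD11b- CD11c+ SiglecF+ cells, and the gate behind the sequenced libraries is not stated in its methods. The part of these cells in the results below was not tested. In bulk samples, fewer cells of a type and less RNA per cell cannot be told apart.

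The genes had no common direction. Of the 36 genes 34 had enough counts to be tested, and 23 of them (67.6%) had an edgeR adjusted p under 0.05, against 53.8% of all 14256 genes tested. Of the 23, 10 were higher and 13 lower with tumor, where 29% and 24.8% of all genes were called in these directions. A change of at least 1 on the log2 scale was found for Gsta3, Nqo1 and Prdx6, which rose, and for Srxn1 and Txnrd1, which fell, whereas 12.9% and 3.01% of all genes passed this size upwards and downwards. Gsta3 and Nqo1 had enough counts to be tested only through the Tumor libraries. The values of the 2 groups did not overlap for 29 of the 34 genes, against 75.1% of all genes. On the log2 scale the 34 genes had a median change of -0.07 and all genes one of 0.02.

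The size of all changes depended on the scaling. Scaling on the 14 AM marker genes instead of TMM shifted the all-gene median from 0.02 to 0.46 on the log2 scale, and 22 genes of the group were then higher and 6 lower, where 65.9% and 6.1% of all genes were called in these directions. Txnrd1 (-0.87) then no longer reached a change of 1, and Gsr (1.07) did. The 6 that stayed lower were Srxn1, Txnrd1, Nfe2l2, Gclc, Maff and Prdx1. This scaling adds nearly the same amount to every gene, so genes that were higher under TMM had to stay higher. Directions below are those under TMM scaling.

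**Figure D1:**
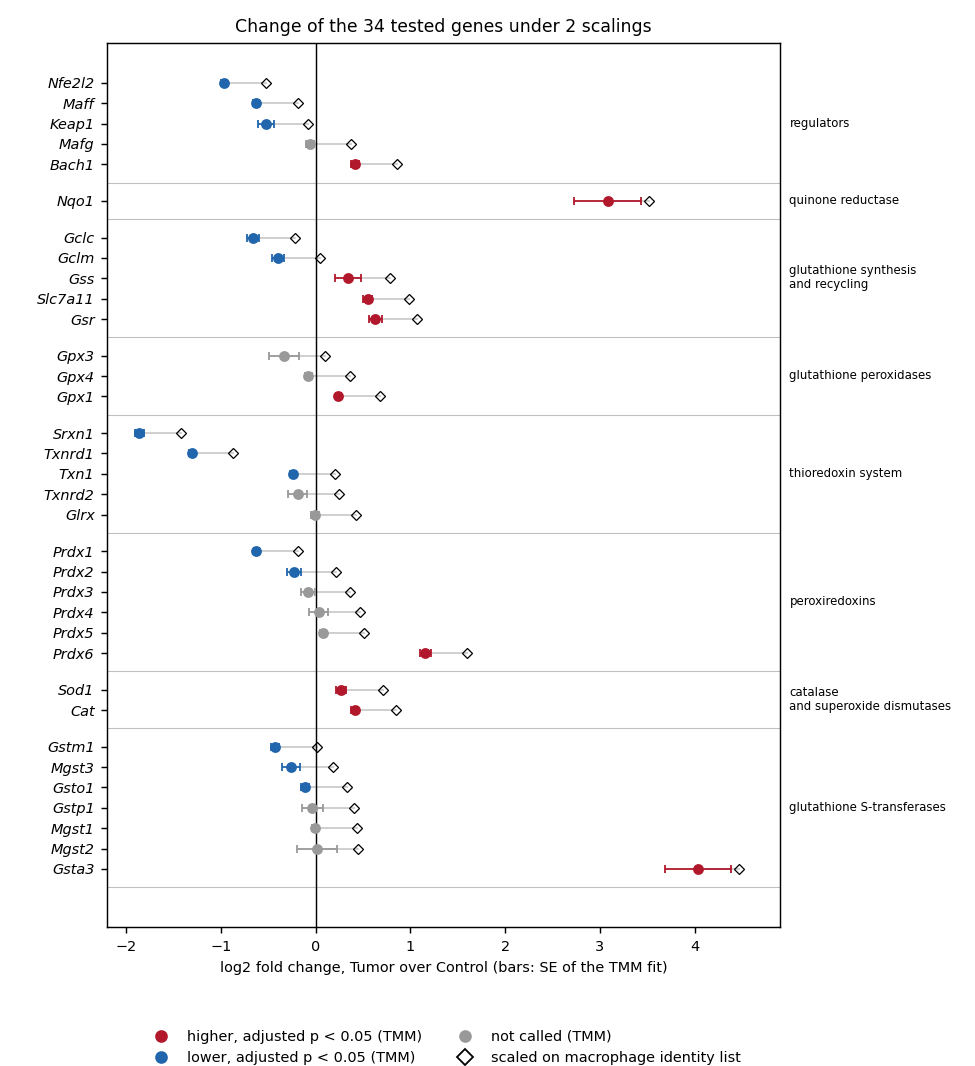
Log2 fold change of the 34 tested genes (x axis, Tumor over Control) by role, as filled points with the SE of the TMM-scaled fit and as open diamonds for scaling on the AM marker list. Srxn1, Txnrd1, Nfe2l2, Gclc, Maff, Prdx1 and Keap1 lie left of 0 under both scalings, Keap1 not called under the second. Of the other genes called lower under TMM, the diamonds of Gclm, Txn1, Prdx2, Gstm1, Gsto1 and Mgst3 lie right of 0.

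Of the 5 regulators Nfe2l2, Maff and Keap1 fell, Bach1 rose and Mafg was not called, whereas with scaling on the AM markers Keap1 was not called and Mafg was higher (0.38). Nfe2l2 (ENSMUSG00000015839, minus strand of chromosome 2, 75675513 to 75704641, GRCm38) had 5845 and 4877 counts in Control and 2813 and 3057 in Tumor libraries. Both Tumor libraries lay far below both Control libraries, at 159 ± 4.70 CPM against 310.4 ± 1.99 CPM (SD, n = 2 each). Its log2 fold change of -0.97 ± 0.0328 (SE; adjusted p 6.55e-20, edgeR) left 51.2% of the Control level, and the value was -0.52 with scaling on the AM markers. Maff, a small MAF partner (chromosome 15, 79346621 to 79359076), had 6838 and 5670 counts against 3953 and 4705 and fell by 0.63 on the log2 scale, or by 0.19 with scaling on the AM markers. Mafg, another partner, had 2030 and 1765 counts against 1795 and 2099, with a log2 fold change of -0.06 and an adjusted p of 0.244.

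KEAP1 and BACH1 both limit NRF2 activity. Keap1 had 688 and 537 counts in Control and 422 and 488 in Tumor libraries, and fell from 35.4 ± 1.89 to 24.6 ± 0.355 CPM (SD, n = 2). Its log2 fold change of -0.52 ± 0.0831 (SE) had an adjusted p of 4.87e-06, but with scaling on the AM markers it was -0.085 with an adjusted p of 0.371. Bach1 had 2288 and 1831 counts against 2694 and 3181, and rose from 119 ± 4.28 to 159 ± 4.63 CPM (SD, n = 2), by 0.42 ± 0.0406 on the log2 scale (SE; adjusted p 9.97e-10). Both Tumor libraries lay above both Control libraries for Bach1 and below them for Keap1.

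The sequences around the starts of these genes were searched for the core of the antioxidant response element, TGACNNNGC, on both strands of the 250 bases before and 50 after each RefSeq start (GRCm38.p6). Of the 36 genes 31 were in the table, with 41 starts, and all 41 had their first transcribed bases in a GENCODE transcript of the same gene. Prdx6, Gsr, Gclc, Sod3 and Gsta4 had no start to search, so nothing is said of their sequences. The letters were found at 10 starts of 10 genes, or 24.4% of starts, against 12.4% of all 32851 starts. Of these 10 genes 6 were lower (Srxn1, Txnrd1, Nfe2l2, Maff, Prdx1 and Gclm, the last with 0.042 under scaling on the AM markers), Gsta3 and Sod1 were higher, and Mgst1 and Mafg were not called. The 31 genes comprised 12 that were lower, 8 that were higher and 11 that were not called. A match is a description of letters and not of binding. Shown are the 6 genes that were lower and Gsta3, which rose most, each read on the strand that holds the letters, with the 9 matching bases in capitals. The Srxn1 match lies past the start, in transcribed sequence, and the Txnrd1 match lies before a start inside the annotated gene.
Txnrd1 (chr10:82859088-82859148, minus strand): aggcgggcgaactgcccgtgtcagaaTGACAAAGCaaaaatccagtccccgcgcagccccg
Prdx1 (chr4:116685440-116685500, minus strand): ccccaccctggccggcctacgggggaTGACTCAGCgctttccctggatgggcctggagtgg
Gclm (chr3:122245397-122245457, minus strand): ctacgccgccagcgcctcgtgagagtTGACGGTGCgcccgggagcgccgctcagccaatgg
Maff (chr15:79346483-79346543, plus strand): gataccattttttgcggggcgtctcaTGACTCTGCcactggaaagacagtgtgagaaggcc
Nfe2l2 (chr2:75704869-75704913, minus strand): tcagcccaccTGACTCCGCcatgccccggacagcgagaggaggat
Srxn1 (chr2:152105542-152105570, minus strand): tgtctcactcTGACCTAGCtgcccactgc
Gsta3 (chr1:21240438-21240498, plus strand): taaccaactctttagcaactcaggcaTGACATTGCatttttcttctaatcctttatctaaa

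The 7 matches shown shared the fixed letters and differed in the 3 middle bases. Of the 10 matches, that of Prdx1 alone also held TGACTCA, the letters that AP-1 proteins bind, so that both motifs overlap there. The matches of Prdx1 and Gclm began 133 and 134 bases before the start, that of Maff 112, that of Txnrd1 92 and that of Nfe2l2 240 bases before it. The core of the element bound by AHR, TNGCGTG, was searched in the same way and found at 0 of the 41 starts, against 5.07% of all starts. This says only that these letters are not in this window.

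**Figure D2:**
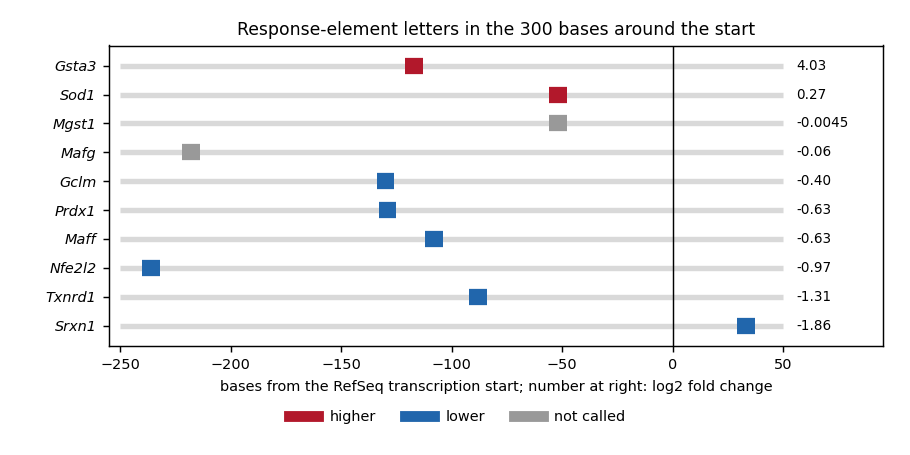
Position of the letters TGACNNNGC in the window from 250 bases before to 50 bases after the RefSeq start (x axis, bases from the start), with 1 row per gene and its log2 fold change at the right. The 6 genes in blue were lower in Tumor libraries under TMM scaling, of which Gclm was at 0.042 under scaling on the AM markers, and the matches of 9 genes lie before the start and that of Srxn1 after it.

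The thioredoxin system showed the largest falls of the group. Srxn1, which encodes sulfiredoxin, the enzyme that restores over-oxidized peroxiredoxins (ENSMUSG00000032802, plus strand of chromosome 2, 152105516 to 152111376), had 3157 and 2607 counts in Control and 798 and 896 in Tumor libraries. Its level was 167 ± 2.29 CPM in Control and 45.9 ± 0.296 CPM in Tumor libraries (SD, n = 2), a 3.64-fold fall. It had a log2 value of -1.86 ± 0.0466 (SE; adjusted p 4.81e-23, edgeR), which lay between -1.90 and -1.42 over 12 alternatives. Txnrd1, which encodes the cytosolic thioredoxin reductase that returns electrons from NADPH to thioredoxin (ENSMUSG00000020250, plus strand of chromosome 10, 82833951 to 82897712), had 15330 and 12835 counts against 5664 and 6497. Its level fell from 816 ± 3.25 CPM to 329 ± 2.85 CPM (SD, n = 2), with -1.31 ± 0.0242 on the log2 scale (SE; adjusted p 3.84e-26). For both genes the replicates of a group differed far less than the groups. Together with the 3 genes below, the system summed to 1363 and 1373 CPM in the Control and 720.4 and 718.6 CPM in the Tumor libraries. Most of this difference lay in Txnrd1 and Srxn1.

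Of the other components Txn1 alone was called. Txn1, thioredoxin itself, had 4422 and 3926 counts against 3530 and 4037 and fell by 0.24 on the log2 scale, a direction that turned to 0.20 with scaling on the AM markers. Txnrd2, the mitochondrial reductase, had a log2 fold change of -0.19 and an adjusted p of 0.123. Glrx, a glutaredoxin that removes glutathione from proteins, had 2269 and 1975 counts against 2170 and 2334, with -0.011 ± 0.0424 (SE) and an adjusted p of 0.846. Both Txnrd2 and Glrx were called higher with scaling on the AM markers, at 0.25 and 0.43.

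**Figure D3:**
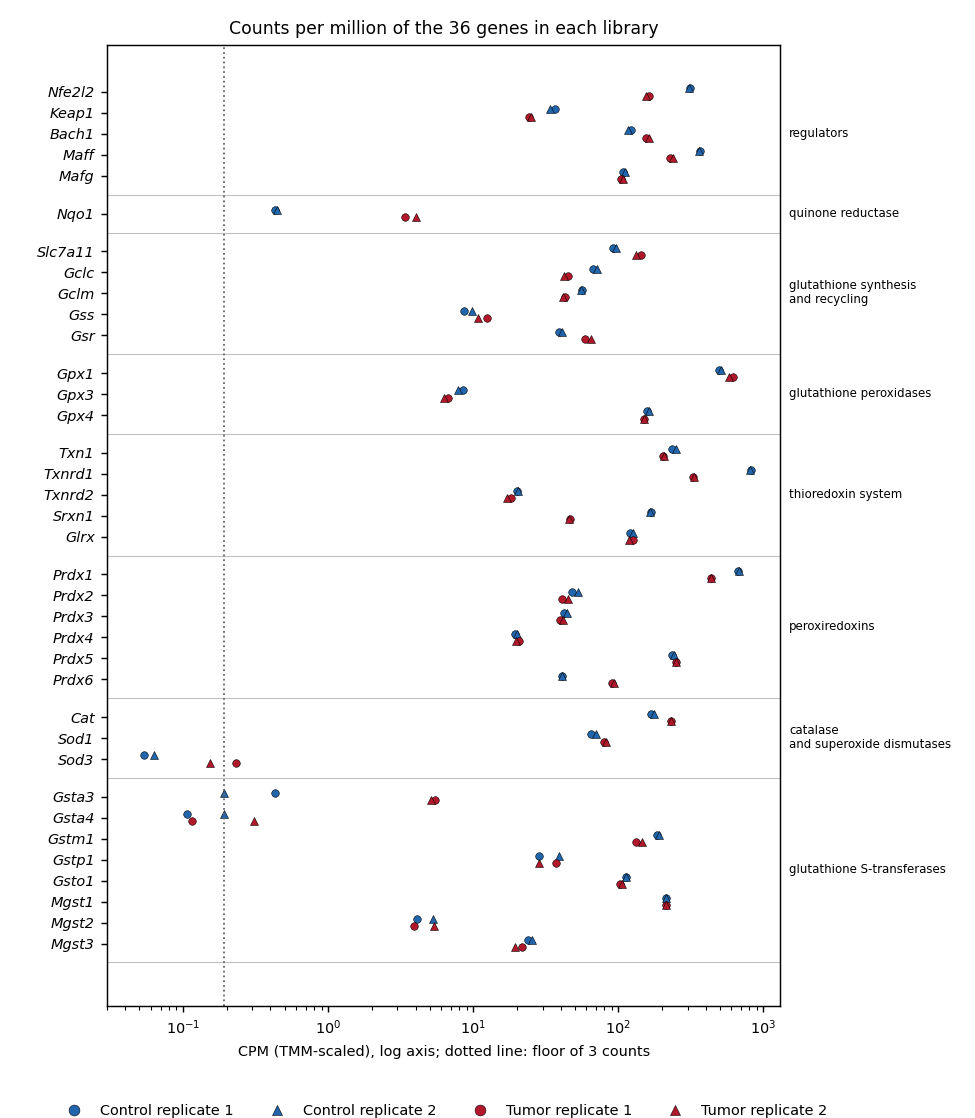
CPM of the 36 genes in each of the 4 libraries (x axis, log scale) by role, with Control in blue, Tumor in red, circles for replicate 1 and triangles for replicate 2. The dotted line is the highest floor of 3 counts, 0.19 CPM. Srxn1, Txnrd1 and Nfe2l2 separate to the left in Tumor libraries and Nqo1, Gsta3 and Prdx6 to the right.

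Peroxiredoxins, which reduce peroxide at a cysteine, moved in both directions. Prdx6, which uses glutathione in place of thioredoxin (ENSMUSG00000026701, minus strand of chromosome 1, 161240112 to 161251219), had 767 and 650 counts in Control and 1555 and 1826 in Tumor libraries. Its level rose from 41.1 ± 0.188 to 91.4 ± 2.31 CPM (SD, n = 2), by 1.16 ± 0.0571 on the log2 scale (SE), with an edgeR adjusted p of 3.53e-16. Prdx1, a cytosolic enzyme (ENSMUSG00000028691, chromosome 4, 116685544 to 116700822), had 12453 and 10748 counts against 7583 and 8510 and fell from 673 ± 11.8 to 436 ± 2.96 CPM (SD, n = 2), by 0.63 on the log2 scale, or by 0.19 with scaling on the AM markers. The 2 genes thus changed in opposite directions, each beyond the spread of its replicates.

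Of the remaining peroxiredoxins Prdx2 alone was called. Prdx2 had 904 and 826 counts against 703 and 883, and its log2 fold change of -0.23 ± 0.0714 (SE), adjusted p 0.00845, turned to 0.21 with scaling on the AM markers and was not called without Control replicate 2 (-0.19, adjusted p 0.0843) or without Tumor replicate 1 (-0.16, adjusted p 0.0604). It shares 173 exon bases with Junb, which was covered by 17564 to 22232 counts, on the opposite strand. Prdx3, in mitochondria, and Prdx4, in the endoplasmic reticulum, had log2 fold changes of -0.082 and 0.030 with adjusted p of 0.348 and 0.825. Both were called higher, at 0.36 and 0.47, when scaled on the AM markers. Prdx5 had 4380 and 3817 counts against 4354 and 4882, with 0.074 ± 0.0316 (SE) and an adjusted p of 0.0515. It was called with total counts as library sizes (0.14), with a minimum of 10 counts in every library (0.099) and with scaling on the AM markers (0.51).

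In glutathione synthesis, the catalytic subunit of the rate-limiting enzyme fell while Slc7a11 and Gsr rose. Gclc, that subunit of glutamate-cysteine ligase, had 1251 and 1124 counts in Control and 778 and 829 in Tumor libraries and fell from 69.0 ± 3.17 to 43.6 ± 1.89 CPM (SD, n = 2). This was -0.66 ± 0.0634 (SE) on the log2 scale, adjusted p 6.68e-10 by edgeR, and -0.22 with scaling on the AM markers. Gclm, the modifier subunit of the same enzyme, had 1045 and 870 counts against 745 and 809 and fell by 0.40, which was 0.042 and not called with scaling on the AM markers. Both Tumor libraries lay below both Control libraries for each subunit.

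Slc7a11 is the cystine importer that supplies the cysteine for glutathione. It had 1724 and 1523 counts in Control and 2481 and 2595 in Tumor libraries, a rise of 0.55 ± 0.0460 on the log2 scale (SE) with an adjusted p of 4.48e-11. Gsr, which reduces oxidized glutathione with NADPH, had 736 and 641 counts against 1019 and 1263 and rose by 0.63 ± 0.0671 (SE). Slc3a2, the partner chain of the importer, was not among the 36 and was picked out after its values were seen. It fell by 0.59, from 8102 and 6758 to 4865 and 5715 counts, and was at -0.15 with scaling on the AM markers. Gss, the synthetase of the last step, had 162 and 154 counts against 215 and 213 and a value of 0.34 ± 0.141 (SE; adjusted p 0.0434). It was not called without Control replicate 1 (0.24, adjusted p 0.298), without Control replicate 2 (0.41, adjusted p 0.0576) or without Tumor replicate 1 (0.24, adjusted p 0.219). Gss also shares 395 exon bases with Acss2 on the opposite strand, which had 103 and 89 counts in Control and 330 and 360 in Tumor libraries, so the Gss value is uncertain.

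Among enzymes that remove peroxide and superoxide, Gpx1, Cat and Sod1 rose, by 0.24 to 0.41 on the log2 scale under TMM and by 0.68 to 0.85 with scaling on the AM markers. Gpx1, the main cytosolic glutathione peroxidase, had 9326 and 8104 counts in Control and 10641 and 11350 in Tumor libraries. Its level went from 506 ± 11.3 to 596 ± 25.5 CPM (SD, n = 2), up by 0.24 ± 0.0274 on the log2 scale (SE; adjusted p 2.17e-08, edgeR). Cat, catalase, had 3165 and 2789 counts against 3979 and 4499 and rose by 0.41 ± 0.0344 (SE). Sod1, the cytosolic superoxide dismutase, had 1210 and 1105 counts against 1382 and 1605 and rose by 0.27 ± 0.0543 (SE). The groups did not overlap for any of the 3 genes.

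Gpx4, which reduces lipid peroxides in membranes, was at -0.081 ± 0.0371 on the log2 scale (SE; adjusted p 0.0690). Gpx3, the secreted form, had 160 and 124 counts against 116 and 124, a log2 value of -0.34 with an adjusted p of 0.0766, and was at 0.10 with scaling on the AM markers. Neither passed the threshold, although Gpx4 was called higher, at 0.36, with scaling on the AM markers. Sod3, the extracellular dismutase, had 1 count in each Control library and 4 and 3 counts with tumor, which was too few to test and was at or near the floor of 3 counts.

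The largest rises were in 2 genes of detoxification that were scarce in Control libraries. Nqo1, which encodes a quinone reductase that responds to NRF2 and to AHR (ENSMUSG00000003849, minus strand of chromosome 8, 107388225 to 107403206), had 8 and 7 counts in Control and 59 and 79 in Tumor libraries. It rose from 0.435 ± 0.0118 to 3.72 ± 0.438 CPM (SD, n = 2), 8.45-fold. Its log2 fold change of 3.08 ± 0.354 (SE) lay between 2.95 and 3.51 over the 11 alternatives in which it could be fitted. Gsta3, an alpha-class glutathione S-transferase (ENSMUSG00000025934, plus strand of chromosome 1, 21240589 to 21265661), had 8 and 3 counts against 95 and 101. Its mean went from 0.308 ± 0.167 to 5.32 ± 0.239 CPM (SD, n = 2), up by 4.03 ± 0.350 on the log2 scale (SE). Both Nqo1 and Gsta3 had enough counts to be tested only through the Tumor libraries. Neither was fitted where every library had to reach the minimum count, so no adjusted p is given.

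The size of the Gsta3 rise rested on few Control counts. On the log2 scale it was 3.60 without Control replicate 2. Leaving out Control replicate 1 kept a single Control library with 3 counts, and the ratio of Tumor to Control was then 27.9, with an exact 95% interval of 9.41 to 136.5 that covers counting error only. Both genes rose in libraries in which all 10 hepatocyte, 10 neutrophil, 5 eosinophil and 6 basophil and mast cell markers rose as well, as given above, and their part in the 2 rises was not tested. The 5 erythroid markers summed to 0.694 to 1.46 CPM in Control and 14.4 to 15.1 CPM in Tumor libraries, with all 3 tested ones higher. The 6 kidney tubule markers summed to 0 in 3 libraries and to 0.153 CPM, or 3 counts, in Tumor replicate 2.

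The other glutathione S-transferases fell slightly or were not called. Gstm1, a mu-class enzyme, had 3437 and 3004 counts in Control and 2298 and 2840 in Tumor libraries and a log2 fold change of -0.43 ± 0.0406 (SE), which was 0.012 and not called with scaling on the AM markers. Gsto1, at -0.11 with an adjusted p of 0.0271, and Mgst3, at -0.26 with an adjusted p of 0.0247, passed the threshold narrowly, and with scaling on the AM markers they were at 0.33 and 0.18. Gsto1 was not called without either Control library or without Tumor replicate 1, with adjusted p of 0.0625 to 0.0789, and Mgst3 was not called without Control replicate 2 or Tumor replicate 2, with adjusted p of 0.118 and 0.181.

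Mgst1, a membrane-bound transferase, had 3984 and 3375 counts against 3677 and 4173. Its log2 fold change was -0.0045 ± 0.0324 (SE), with an adjusted p of 0.922. Gstp1 had 533 and 616 counts against 642 and 561, and its SD of 7.49 CPM around 33.7 CPM in Control libraries exceeded the difference between the groups. It was called lower, at -0.26, without Control replicate 1 and, at -0.23, without Tumor replicate 1, whereas it was at 0.18 and 0.14, not called, without the other Control or Tumor library. With scaling on the AM markers Mgst1 and Gstp1 were called higher, at 0.44 and 0.41. The neighbouring paralog Gstp2 had 5 and 15 counts in Control and 0 in both Tumor libraries, and reads could be split between the copies. Mgst2 had 68 to 106 counts with an adjusted p of 0.971, and Gsta4, with 2 to 6 counts, was not tested.

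Levels can be compared between genes only per length, as CPM divided by gene length in kilobases. On this scale Gpx1 ranked first of the 36 genes in both groups, at 351 in Control and 414 in Tumor libraries, followed by Txn1 at 231 and 195 and Prdx1 at 221 and 143. Maff, at 140 and 90.2, and Prdx5, at 111 and 117, came next by the mean over both groups. Within the groups Maff ranked 4 in Control and 7 in Tumor libraries, and Prdx5 ranked 7 and 4. Srxn1 moved from rank 12 in Control to rank 22 in Tumor libraries, and Txnrd1 from rank 6 to rank 11. Sod3, Gsta3, Gsta4 and Nqo1 were the lowest 4 in Control libraries.

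The wider pathways were described with 70 further genes, of which 60 were tested. With tumor 19 were higher and 19 lower, with 63.3% called against 53.8% of all genes, and the median log2 fold change was 0.044. With scaling on the AM markers 42 were higher and 8 lower. Hmox1 and Sqstm1 fell by more than 1 on the log2 scale, whereas Osgin1, Txnip and others given below rose by more than 1. Hmox1, the inducible haem oxygenase, had 8686 and 7571 counts in Control and 1910 and 2158 in Tumor libraries, a log2 fold change of -2.10 ± 0.0322 (SE) with an adjusted p of 5.97e-28. Sqstm1, whose product p62 binds KEAP1, had 51306 and 43563 counts against 16527 and 19218 and fell by 1.51. Sod2, the mitochondrial superoxide dismutase, fell by 0.86. With scaling on the AM markers these falls were -1.66, -1.07 and -0.42.

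Of the other genes with at least 100 counts, 5 rose by more than 1. Txnip, which binds and inhibits thioredoxin, had 1958 and 1716 counts in Control and 6338 and 7074 in Tumor libraries, a rise of 1.77 ± 0.0341 on the log2 scale (SE). Sesn1, a sestrin that responds to p53 and FOXO factors, rose by 1.58 and Ggt5, which cleaves extracellular glutathione conjugates, by 1.02. Osgin1, an oxidative stress-induced growth inhibitor, rose by 2.91, from 67 and 58 to 484 and 523 counts. Nfe2, a relative of NRF2 best known in erythroid cells, platelets and their precursors, rose by 3.57, from 28 and 47 to 457 and 504 counts, beside the rise of erythroid and neutrophil markers given above.

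**Figure D4:**
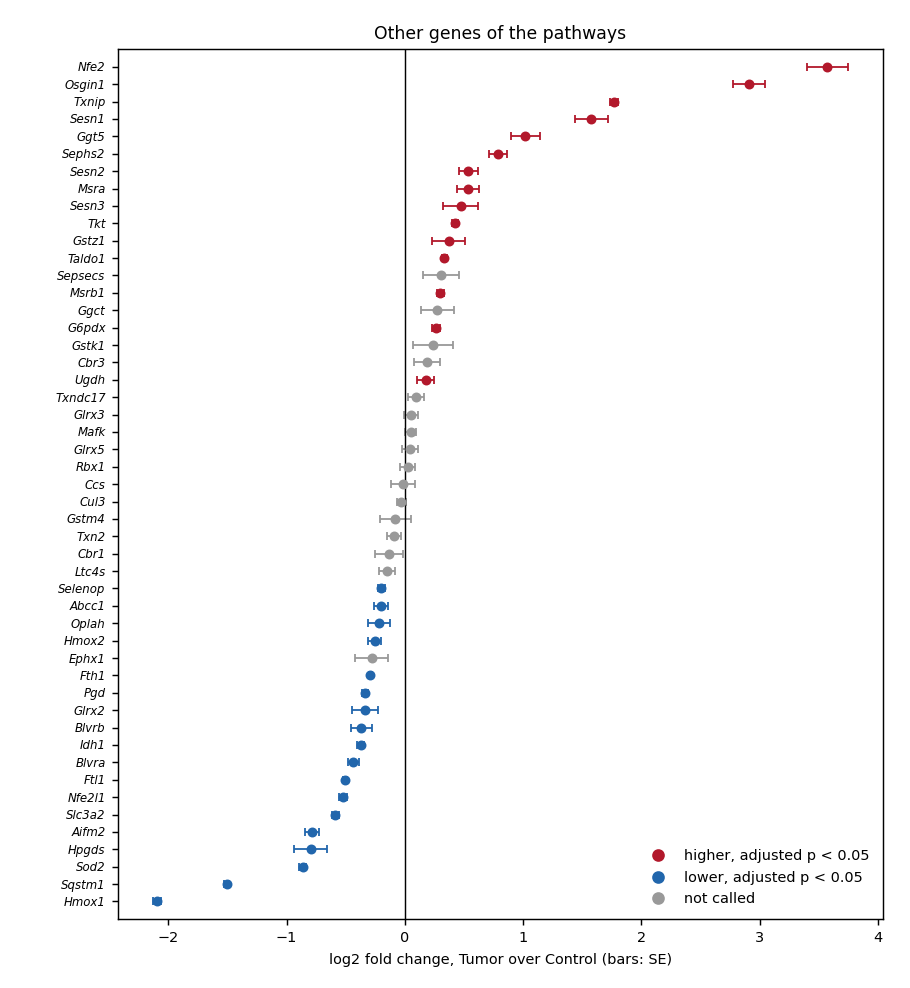
Log2 fold change with SE (x axis, Tumor over Control, TMM scaling) of the 49 other pathway genes whose mean count reached 100 in either group, of which 15 were higher, 18 lower and 16 not called. Hmox1 and Sqstm1 lie farthest left and Nfe2, Osgin1 and Txnip farthest right. With scaling on the AM markers 42 of all 60 tested genes were higher and 8 lower.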

How the data were processed

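Bulk RNA-seq counts of 2 Control and 2 Tumor libraries were analysed. The deposited values are read counts per gene without normalization. Per the methods of the study, the authors aligned paired-end reads with HISAT2 (version 2.0.5 in the submitters' processing notes) and counted them with featureCounts. The genome build, strandedness and handling of multiply matching reads are not given in the sources used here, so overlapping genes and paralogs may share reads. Of the table, 54409 gene identifiers matched GENCODE release M 21 (GRCm38), 98.3% with identical coordinates. The submitters' notes also name DESeq2.

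Libraries were grouped by the titles in the labels. Counts were tested with edgeR 4.0.16 in R 4.3.3 (filterByExpr with a minimum count of 10, TMM scaling, quasi-likelihood test with group as the single term, Benjamini-Hochberg adjustment over 14256 tested genes, threshold 0.05). The SE was derived from each log2 fold change and the F statistic of its test. An exact two-sided permutation test of 2 against 2 libraries cannot go below 0.333, so the test relies on sharing the spread across genes. Values of 3 counts or fewer were treated as the floor, which covers counting error only. The chi-square per degree of freedom between replicates was 1.81 for Control and 2.30 for Tumor, above sampling noise. Replicate numbers did not pair the libraries. Promoter sequences are those of RefSeq (GRCm38.p6).

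The members, lists and roles were chosen with earlier results of these data known. Genes are described with counts per library where the adjusted p was under 0.05 with a log2 fold change of at least 1, where they are regulators, or where they rank among the 5 highest per length; of the other pathway genes, those with a change of at least 1 and a mean of at least 100 counts, and Hmox1, Sod2 and Txnip, are named. Counts of further members were added after their values were seen. Alternatives were other scalings, filters and tests (DESeq2 1.42.0, limma-voom 3.58.1), a replicate block, a minimum change and leaving out each library, where the lone library of a group is assumed to vary like the other group.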

Additional observations from a re-analysis of the deposited data

How the results depend on the processing

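Of the 34 tested members 15, all of them among the 23 called, kept their direction and call under every alternative scaling, filter, test, block and left-out library in which they could be fitted. Requiring a log2 fold change of at least 1 moved the counts most, to 5 members, 11 other pathway genes and 2268 of all genes, from 23, 38 and 7671. Scaling on the AM markers gave 28 called members (82.4%, against 72% of all genes) and turned 14 log2 fold changes, to 0.38 for Mafg, 0.042 for Gclm, 0.10 for Gpx3, 0.36 for Gpx4, 0.20 for Txn1, 0.25 for Txnrd2, 0.43 for Glrx, 0.21 for Prdx2, 0.36 for Prdx3, 0.012 for Gstm1, 0.41 for Gstp1, 0.33 for Gsto1, 0.44 for Mgst1 and 0.18 for Mgst3, by the construction of that scaling, which raises every gene alike. Other turns, in members not called in either fit, were to 0.0047 for Mafg, 0.055 for Glrx, 0.032 for Gstp1 and 0.062 for Mgst1 with total counts, to 0.014 for Glrx and 0.021 for Mgst1 with a minimum of 10 counts in every library, and for Mgst2 to -0.0037 without a filter, -0.0025 with DESeq2 and -0.0094 with the replicate block. Leaving out a library gave -0.055 to 0.023 for Glrx, -0.013 to 0.065 for Prdx4, -0.26 to 0.18 for Gstp1 and -0.25 to 0.21 for Mgst2. Of all genes the AM scaling called 9395 higher and 869 lower, against 4136 and 3535, and total counts as library sizes called 4787 higher and 2850 lower. The median log2 fold change of the members was 0.37 with scaling on the AM markers, -0.0046 with total counts, and between -0.13 and -0.066 when a library was left out, which left 19 to 22 members (55.9% to 64.7%) and 43.5% to 50.3% of all genes called. The replicate numbers showed no pairing, with a correlation of -0.0028 between the replicate deviations of the groups, and the fit with the replicate block called 22 members, losing Gss (adjusted p 0.0554). DESeq2 called 19 members (55.9%), against 41.1% of all genes, and did not call Gss, Prdx2, Gsto1 and Mgst3. Total counts lost the calls of Prdx2 (adjusted p 0.0600), Gsto1 (0.376) and Mgst3 (0.0947), and a minimum of 10 counts in every library that of Gsto1 (0.0828). Genes with under 10 counts in a library, such as Nqo1 and Gsta3, give imprecise folds.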
